A study of Mus musculus with 12 samples.

Results

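RNA-seq was used to follow 10 genes for ligands that T cells meet on other cells, in primary mouse oligodendrocyte precursor cells (OPCs) given IFN-γ, an inhibitor of EZH2, both or neither. The genes were taken by symbol: Cd274, Pdcd1lg2, Cd40, Cd80, Cd86, Icosl, Icam1, Vcam1, Lgals9 and Cd47, out of 55536 annotated genes. The 12 libraries form 4 groups of 3 replicates from different litters, and several brains were pooled for each culture. All cultures were OPCs from brains of pups at postnatal days 4 to 6, selected either by sorting for Sox10GFP+ cells or with CD140a beads and grown with PDGFaa and bFGF. In the Sox10GFP line, Cre is driven by Sox10, and the labels do not say which selection each library had. Ctr was untreated, and EZH2i received EPZ011989, a small molecule that blocks the methyltransferase EZH2, over 4 days (1.5 μM, replaced after each 48 h). IFN-γ was present for 6 h at 100 ng/ml, and the fourth group had both, with fresh inhibitor added along with the cytokine. The labels also name EAE as the mouse model, whereas the culture protocol describes pup brains only.

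A T cell that recognises a peptide on MHC needs further contacts to become fully active. CD80 and CD86 bind CD28 and CTLA-4, ICOS ligand binds ICOS, and CD40 receives the CD40 ligand signal from helper T cells. PD-L1 (Cd274) and PD-L2 (Pdcd1lg2) engage PD-1 and dampen the response, and galectin-9 (Lgals9) binds TIM-3. ICAM-1 and VCAM-1 hold leukocytes through the integrins LFA-1 and VLA-4, and CD47 signals to SIRPα on phagocytes not to engulf the cell. IFN-γ acts through the kinases JAK1 and JAK2 on factors that bind GAS motifs, and through IRF1, which binds ISRE motifs. EZH2 deposits the repressive mark H3K27me3.

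The total per library was 17403893 to 66546052 estimated counts (median 33625908), and Ctr replicate 2 was the shallowest. Levels between libraries are given as CPM, the share of a library's reads that fall on a gene after TMM scaling, and a library with 3 counts or fewer of a gene is taken to be at the floor. Markers of the OPC list summed to 3837 to 6952 CPM and all 6 were present. Of 10 markers of microglia and macrophages, Aif1, C1qa and C1qb were at the floor in every library, and the list summed to 2.19 to 2.71 CPM in Ctr and 3.14 to 4.52 CPM with IFN-γ. Its markers Cd68 (0.896 to 2.78 CPM) and P2ry12 (0.390 to 1.34 CPM) were found in every library. Of the T cell list Cd3e, Cd3g and Cd2, of the B cell list Ms4a1 and Cd22, and of the dendritic cell list Itgax were at the floor throughout, with highest sums of 0.506, 1.41 and 20.7 CPM. Most of the dendritic cell sum was Zbtb46 (13.1 ± 0.343 CPM in Ctr and 16.4 ± 3.46 CPM with IFN-γ). Most of the B cell sum was Cd79a (0.579 ± 0.383 and 0.722 ± 0.602 CPM). The pericyte and fibroblast list summed to 0.886 to 1.75 CPM in Ctr, 2.02 to 2.79 with EZH2i, 2.10 to 3.05 with IFN-γ and 3.93 to 5.90 with both, and its member Kcnj8 was called higher with IFN-γ (0.792 ± 0.283 against 0.0363 ± 0.0198 CPM, adjusted p = 1.96e-04). Kcnj8 was near the floor in Ctr, so this call is a description only. The endothelial list summed to 9.43 to 17.2 CPM in Ctr, 19.6 to 35.5 with EZH2i, 8.36 to 16.6 with IFN-γ and 17.4 to 32.5 with both. The mature oligodendrocyte list summed to 1843 to 2268 CPM in Ctr, 1098 to 1600 with EZH2i, 1715 to 2048 with IFN-γ and 1062 to 1570 with both. The sums of the pericyte, endothelial and mature oligodendrocyte lists thus differed with EZH2i without overlap, though none of their markers was called with EZH2i. Most of the endothelial sum was Flt1, at 15.5 CPM in Ctr replicate 1 and 32.5 CPM in EZH2i replicate 1. The astrocyte list summed to 787 to 2038 CPM. With IFN-γ, the OPC markers Pdgfra (716 ± 202 against 1505 ± 356 CPM, SD, n = 3, adjusted p = 0.0141) and Cspg4 (355 ± 90.0 against 792 ± 28.7 CPM, adjusted p = 0.00245) were lower. The neuron list summed to 34.7 to 48.0 CPM in Ctr and 685 to 1278 CPM with IFN-γ, most of it Tubb3, which was called higher (adjusted p = 1.24e-06). Of the other 3 neuron markers, Syt1 was called higher (6.25 ± 1.66 against 1.51 ± 0.264 CPM), while Rbfox3 (1.25 against 1.78 CPM) and Snap25 (10.4 against 11.1 CPM) were not called. The part of these shifts in the results below was not tested, and in bulk RNA fewer cells of a type and less RNA per cell cannot be told apart.

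Promoter sequence is shown for Cd274, Icam1 and Lgals9, the members with the largest rises under IFN-γ, and for Pdcd1lg2, the neighbour of Cd274 that was not detected above the floor in 10 of the 12 libraries. Each line holds the 250 bases before the start site of RefSeq on GRCm38.p6, read 5′ to 3′ on the gene's strand. Capitals mark a match to the ISRE core (TTCNNTTTC), the GAS motif (TTCNNNGAA) or the NF-κB consensus, searched on both strands in windows of 250 bases before and 50 after the start.
Cd274 (chr19:29367188-29367437, plus strand): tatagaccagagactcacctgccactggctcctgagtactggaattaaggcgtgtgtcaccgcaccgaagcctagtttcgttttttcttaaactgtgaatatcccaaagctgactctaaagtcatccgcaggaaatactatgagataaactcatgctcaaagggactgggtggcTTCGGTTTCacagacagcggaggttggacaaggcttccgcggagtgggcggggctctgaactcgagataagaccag
Icam1 (chr9:21015690-21015939, plus strand): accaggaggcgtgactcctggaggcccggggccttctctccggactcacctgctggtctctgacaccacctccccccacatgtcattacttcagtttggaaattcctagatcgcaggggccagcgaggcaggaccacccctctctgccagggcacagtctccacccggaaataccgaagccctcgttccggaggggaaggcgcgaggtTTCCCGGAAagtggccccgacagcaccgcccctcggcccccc
Lgals9 (chr11:78984925-78985174, minus strand): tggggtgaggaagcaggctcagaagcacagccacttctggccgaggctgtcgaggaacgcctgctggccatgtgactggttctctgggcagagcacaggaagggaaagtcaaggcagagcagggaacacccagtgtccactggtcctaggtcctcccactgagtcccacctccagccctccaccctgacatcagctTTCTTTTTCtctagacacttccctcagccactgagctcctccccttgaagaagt
Pdcd1lg2 (chr19:29410669-29410918, plus strand): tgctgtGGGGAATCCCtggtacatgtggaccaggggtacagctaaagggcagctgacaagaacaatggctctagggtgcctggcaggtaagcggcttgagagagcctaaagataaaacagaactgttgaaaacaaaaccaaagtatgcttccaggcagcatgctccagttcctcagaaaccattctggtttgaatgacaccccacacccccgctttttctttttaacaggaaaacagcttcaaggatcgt
Windows were found for 7 of the 10 members, and those of Cd40, Cd86 and Vcam1 are not shown. The ISRE match of Cd274 lay 76 to 68 bases before the start, the GAS match of Icam1 42 to 34 bases before it and the ISRE match of Lgals9 54 to 46 bases before it. Lgals9 had another ISRE match after its start, at positions 16 to 24 counted from 0 at the start site. NF-κB matches lay in the windows of Icosl (111 to 102 bases before the start) and Pdcd1lg2 (244 to 235 bases before it), and the windows of Cd47 and Cd80 held none of the 3 motifs. The ISRE core was found in 2 of the 7 member windows and in 8.56% of all 32851 promoter windows. The GAS motif was found in 1 of the 7 and in 8.30% of all, and the NF-κB consensus in 2 of the 7 and in 8.46% of all. No 2 matches overlapped, and a match describes letters, not binding.

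The first question was which of these ligands changed within 6 h of IFN-γ. The checkpoint ligands Cd274 and Lgals9, the adhesion ligand Icam1, the costimulatory ligand Icosl and the phagocytosis checkpoint Cd47 were higher with IFN-γ. Thus 5 of the 10 members were called higher than Ctr, where 6.65% of all 18995 genes tested were called higher. Of the other members, Vcam1 and Cd80 were tested and not called, and Cd40, Cd86 and Pdcd1lg2 did not pass the filter on low counts. The same 5 members were called in IFN-γ with EZH2i versus EZH2i, where 5.90% of genes were called higher. That comparison has other libraries but comes from the same fit. Same-numbered libraries with IFN-γ deviated together with and without EZH2i, so it is not an independent repeat. The median log2 fold change of the 7 members past the filter was 1.68 without and 1.48 with EZH2i, against 0.00 over all genes tested. Lgals9 was near or at the floor without IFN-γ and passed the filter through its IFN-γ libraries, so the counts of members called and these medians are a description only.

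**Figure D1:**
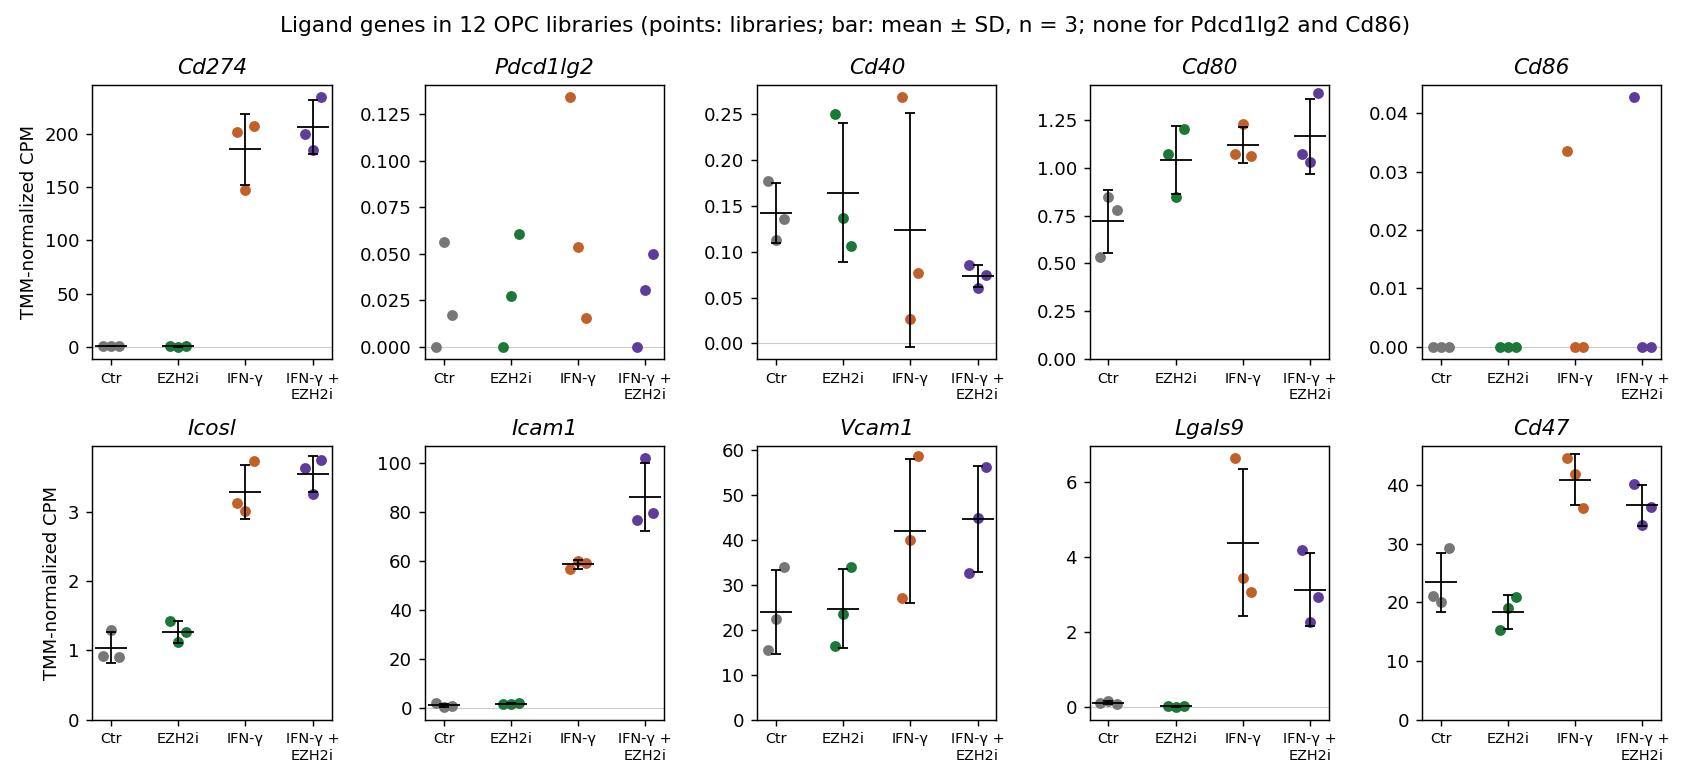
TMM-normalized CPM (y axis, scaled for each gene) of the 10 ligand genes in the 4 groups (x axis), with 1 point per library and bars for mean ± SD (n = 3), left out for Pdcd1lg2 and Cd86, which stayed between 0 and 0.134 CPM. Cd274, Icam1, Icosl, Lgals9 and Cd47 lie higher in both IFN-γ groups than in both groups without it.

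Cd274, which encodes PD-L1, had the largest rise. It was measured at 0.745, 0.508 and 0.560 CPM in the Ctr libraries and at 0.679, 0.411 and 0.501 CPM in the EZH2i libraries. With IFN-γ it reached 202, 147 and 207 CPM, and with both treatments 200, 185 and 234 CPM. Every library with IFN-γ lay far above every library without it, while the groups with and without EZH2i overlapped. The change was 304-fold in IFN-γ versus Ctr (95% interval 210 to 440, log2 fold change 8.25, standard error 0.24, adjusted p = 4.96e-10). In the presence of EZH2i it was 394-fold (95% interval 272 to 572, log2 fold change 8.62, standard error 0.24, adjusted p = 3.28e-10). In counts, Cd274 went from 9 to 33 per Ctr library to 5502 to 13418 per IFN-γ library, so the imprecision lies mainly in the untreated cells. Only 1 transcript is annotated for it, with 7 exons and 870 coding bases.

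Pdcd1lg2, the other PD-1 ligand, starts 43.5 kb downstream of Cd274 and held 0 to 4 counts per library. Its highest level was 0.134 CPM, in IFN-γ replicate 1, and 10 of the 12 libraries were at the floor. The fit with no filter on low counts gave a fold change of 2.81 for IFN-γ versus Ctr (95% interval 0.386 to 20.5, adjusted p = 0.74), so at this depth only a large rise could have been detected. Galectin-9 was the other checkpoint ligand with a rise. Lgals9 had 3, 3 and 5 counts in Ctr and 1, 0 and 2 counts in EZH2i, against 198, 129 and 199 counts with IFN-γ and 98, 75 and 118 counts with both. In CPM the IFN-γ libraries were at 6.63, 3.44 and 3.07 and those with both treatments at 4.19, 2.28 and 2.93. The groups with and without IFN-γ did not overlap, and replicate 1 was the highest of its group under IFN-γ, with and without EZH2i. The change was 38.7-fold in IFN-γ versus Ctr (95% interval 18.0 to 83.6, adjusted p = 2.14e-05). With EZH2i, all libraries without IFN-γ were at the floor, and Lgals9 was at least 40.0-fold higher with IFN-γ, counting 3 counts per library as the floor (adjusted p = 7.54e-06). Its transcript Lgals9-202, with 10 exons and 966 coding bases, made up 94.3% ± 2.47 (SD, n = 3) of the gene's TPM with IFN-γ and 93.0% ± 7.87 with both.

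Cd47, the ligand of SIRPα, was expressed in every group. It was measured at 21.0, 20.0 and 29.2 CPM in Ctr and at 44.6, 41.8 and 36.1 CPM with IFN-γ. The libraries with EZH2i alone were at 15.2, 19.1 and 20.9 CPM and those with both at 40.1, 33.2 and 36.2 CPM. All libraries with IFN-γ lay above all libraries without it, with the smallest gap at Ctr replicate 3. The change was 1.74-fold without EZH2i (95% interval 1.34 to 2.27, adjusted p = 0.0118) and 1.98-fold with it (1.52 to 2.58, adjusted p = 0.00324). Without EZH2i the call was lost when Ctr replicate 1 (adjusted p = 0.0608) or Ctr replicate 2 (0.0712) was left out, and with length-scaled TPM in place of counts it was lost both without (0.0689) and with EZH2i (0.0501). Of 10 annotated transcripts, Cd47-201, Cd47-202 and Cd47-207, which differ in coding length (972, 813 and 774 bases), held 29.9%, 21.8% and 23.9% of the gene's TPM in Ctr and 26.0%, 26.8% and 17.9% with IFN-γ. The noncoding Cd47-210 held 6.82% and 8.83%. Their SDs over 3 libraries reached 12.3 percentage points, and the ranges of the 2 groups overlapped for each.

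Among the costimulatory ligands, Icosl changed and Cd80 did not pass the test. Icosl, the ligand of ICOS, was at 0.922, 1.30 and 0.899 CPM in Ctr and at 3.12, 3.01 and 3.73 CPM with IFN-γ. With EZH2i it was at 1.43, 1.12 and 1.26 CPM without and 3.63, 3.25 and 3.75 CPM with IFN-γ. The lowest library with IFN-γ lay above the highest library without it in both settings. The change was 3.21-fold (95% interval 2.26 to 4.55, adjusted p = 4.63e-04) and 2.79-fold (1.98 to 3.93, adjusted p = 0.00102). The coding transcript Icosl-201 made up 56.3% ± 7.92 of the gene's TPM with IFN-γ and 70.8% ± 2.12 with both. The rest went mainly to the retained-intron transcripts Icosl-204 (29.1% ± 2.48 and 19.6% ± 1.74) and Icosl-202 (13.7% ± 8.55 and 6.55% ± 5.68), so part of the Icosl signal was not assigned to coding RNA. In Ctr, with 23 to 53 counts per library, the share of Icosl-201 ranged from 33.8% to 78.3%. With EZH2i alone, at 40 to 83 counts, it ranged from 0% to 66.7%, and Icosl-204 held 42.4% ± 29.5.

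Cd80, a ligand of CD28 and CTLA-4, was present at a low level in every library, from 15 to 79 counts. It was at 0.532, 0.847 and 0.780 CPM in Ctr and at 1.07, 1.23 and 1.06 CPM with IFN-γ, so these groups did not overlap. The fold change was 1.56 (95% interval 1.02 to 2.39) with an adjusted p of 0.242. With EZH2i, Cd80 was at 1.07, 0.849 and 1.20 CPM without and 1.07, 1.03 and 1.39 CPM with IFN-γ, a fold change of 1.12 (0.738 to 1.70, adjusted p = 0.892). The transcript Cd80-202 held 87.4% to 100% of the gene's TPM as group means. Cd86, the partner of Cd80, was at 0 counts in 10 of the 12 libraries and at 1 count in IFN-γ replicate 1 and in replicate 1 of both treatments. Cd40 held 1 to 8 counts per library and lay between 0.0266 and 0.268 CPM. The fit with no filter on low counts gave Cd86 adjusted p-values of 0.755 for IFN-γ versus Ctr and 0.771 with EZH2i, where the interval of the fold change was wide (0.193 to 67.7 and 0.254 to 77.6). For Cd40 it gave 0.974 and 0.748.

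The adhesion ligands differed from each other. Icam1, the ligand of LFA-1, was at 1.70, 0.226 and 0.695 CPM in Ctr and at 56.5, 59.9 and 59.2 CPM with IFN-γ. With EZH2i it was at 1.57, 1.45 and 1.72 CPM without and 76.6, 102 and 79.5 CPM with IFN-γ. The Ctr libraries spread over several fold, with only 4 counts in replicate 2 against 48 and 41 in the others, whereas the IFN-γ libraries lay close together. The change was 64.7-fold without EZH2i (95% interval 34.9 to 120, adjusted p = 8.84e-07) and 54.1-fold with it (30.0 to 97.7, adjusted p = 8.74e-07). Without Ctr replicate 1, the highest of its group, the log2 fold change of the former moved from 6.02 to 6.74 (adjusted p = 2.22e-07). The coding transcript Icam1-201 (1611 coding bases) held 96.3% ± 1.18 of the gene's TPM with IFN-γ and 96.7% ± 1.12 with both.

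Vcam1, the ligand of VLA-4, was abundant without IFN-γ. It was at 15.5, 22.4 and 34.0 CPM in Ctr and at 27.1, 40.1 and 58.8 CPM with IFN-γ. With EZH2i it was at 16.5, 23.6 and 34.1 CPM without and at 32.7, 44.9 and 56.3 CPM with IFN-γ. In each of the 4 groups replicate 1 was the lowest and replicate 3 the highest, and the groups overlapped. The fold change was 1.75 without EZH2i (95% interval 1.02 to 3.01, adjusted p = 0.245) and 1.80 with EZH2i (1.05 to 3.09, adjusted p = 0.229), so neither passed the test with the group as the only term. In IFN-γ with EZH2i versus EZH2i, where libraries of 1 number deviated together over all genes, the fit with the replicate number as a block called Vcam1 higher, with a fold change of 1.84 (1.61 to 2.10, adjusted p = 1.41e-05). This blocked fit called 6 of the 10 members, and it called 19.3% of all genes in either direction. Within replicate numbers 1, 2 and 3, Vcam1 with both treatments was 1.98, 1.90 and 1.65 times its level with EZH2i alone. In IFN-γ versus Ctr these ratios were 1.75, 1.79 and 1.73. There the blocked fit also called Vcam1 (1.75-fold, log2 fold change 0.81, standard error 0.0883, adjusted p = 3.07e-05), and 21.2% of all genes in either direction. In that comparison the libraries of number 2 deviated together only at 0.0854 over all genes tested and at 0.118 over genes of at least 1 CPM. The call of Vcam1 there thus rests on whether the numbers are taken to pair libraries, a choice made with earlier results known.
The sum of the astrocyte list moved with the replicate number too. It was 838, 1321 and 1553 CPM in Ctr replicates 1, 2 and 3, and with IFN-γ it was lowest in replicate 1 (787 CPM) and highest in replicate 3 (1765 CPM). It was 1048, 1333 and 1844 CPM with EZH2i and 1074, 1202 and 2038 CPM with both. The groups with and without IFN-γ overlapped in this sum, and its part in the level of Vcam1 was not tested. Within the list, Gfap and Aqp4 did not follow the order of the sum. In Ctr they were lower in replicate 2 (70.4 and 59.7 CPM) than in replicate 1 (78.8 and 71 CPM). The same held with IFN-γ and with both treatments. Vcam1-201, the transcript with 2217 coding bases, held 89.2% to 93.9% of the gene's TPM as group means.

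**Figure D2:**
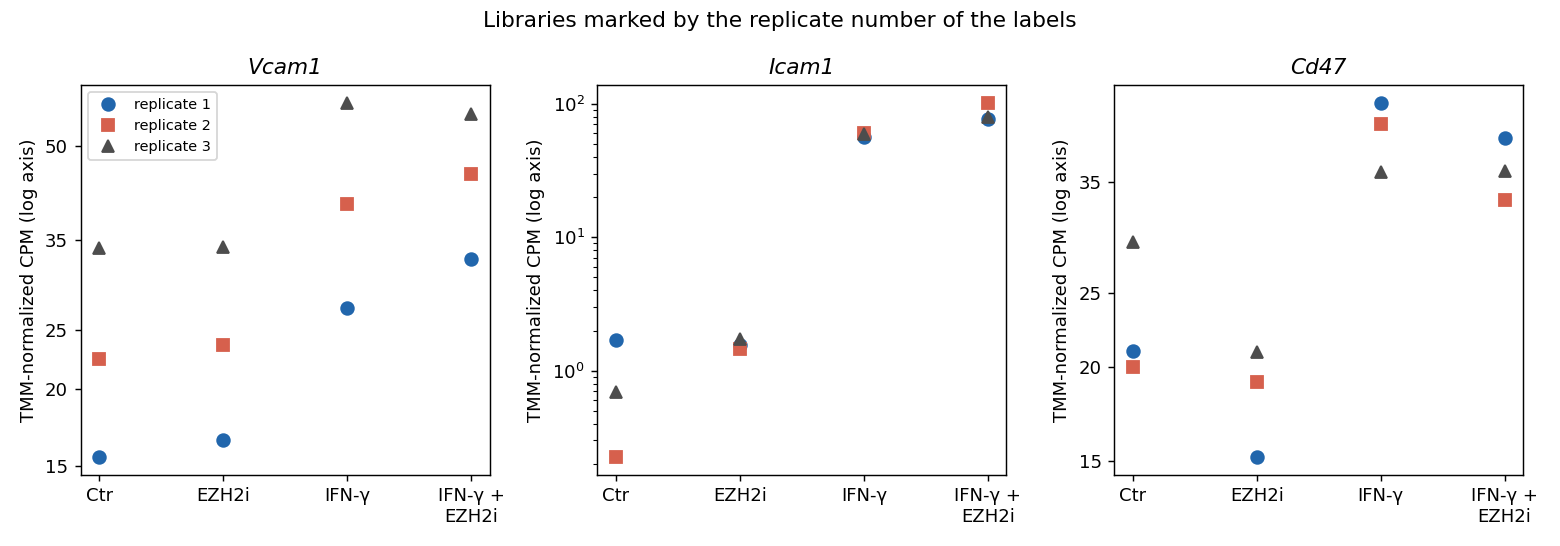
TMM-normalized CPM (log y axis) of Vcam1, Icam1 and Cd47 in the 4 groups (x axis), with the marker giving the replicate number in the labels. Replicate 3 is the highest Vcam1 library in all 4 groups, while Icam1 varies by replicate mainly in Ctr, from 0.226 to 1.70 CPM, and Cd47 has no common order.

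Counting libraries rather than tests, 6 of the 7 members past the filter had all IFN-γ libraries above all Ctr libraries, Cd80 added to the 5 called, where 13.5% of all genes did so. In the presence of EZH2i this held for 5 of the 7, against 11.8% of all genes. Lgals9, which passed the filter through its IFN-γ libraries, is in both counts, so they too are a description only.

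The next question was whether the inhibitor changed these ligands. No member was called in EZH2i versus Ctr by edgeR's quasi-likelihood test, where 0.405% of genes were called in either direction. The count was also 0 with DESeq2. At an unadjusted p under 0.05 there was 1 member in edgeR, Lgals9 (0.0182, adjusted 0.489), with 11 counts over the 3 Ctr libraries and 3 over the 3 EZH2i libraries, and there were 2 in DESeq2, Lgals9 (0.0285, adjusted 0.499) and Icam1 (0.0257, adjusted 0.474). All Lgals9 libraries with EZH2i lay below those of Ctr, but all except Ctr replicate 3 were at the floor. All Cd80 libraries with EZH2i lay above those of Ctr, the closest at 0.849 against 0.847 CPM in replicate 2. Groups without overlap were found for 12.7% of all genes, and nothing is read from these 2 members. The fold change of Cd80 was 1.45 (95% interval 0.946 to 2.23, adjusted p = 0.809). For Icam1 it was 1.76 (0.970 to 3.19, adjusted p = 0.767), with overlap at Ctr replicate 1, and its log2 value of 0.81 moved to 1.56 without that library (adjusted p = 0.0989) and to 0.48 without Ctr replicate 2. The fold change of Icosl was 1.24 (0.870 to 1.76). Cd274 had a fold change of 0.859 (0.581 to 1.27), Cd47 of 0.786 (0.604 to 1.02) and Vcam1 of 1.03 (0.601 to 1.77), and the groups overlapped for each.

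In the presence of IFN-γ, no member was called with EZH2i either, where 0.353% of genes were called. The count was 0 with DESeq2 as well, and with the group as the only term 0 members had an unadjusted p under 0.05 in both tools. Icam1 alone had no overlap, 1 of the 7 members against 10.3% of all genes. Its level was 58.5 ± 1.77 CPM under IFN-γ alone against 86.1 ± 14.0 CPM under both (SD, n = 3), a fold change of 1.47 (95% interval 0.920 to 2.35, adjusted p = 0.889). The ratio was 1.35, 1.71 and 1.34 within replicate numbers 1, 2 and 3. For Cd274 the fold change was 1.11 (0.866 to 1.43), for Icosl 1.08 (0.775 to 1.50) and for Vcam1 1.06 (0.622 to 1.82). Cd80 had a fold change of 1.04 (0.688 to 1.58), Cd47 of 0.893 (0.688 to 1.16) and Lgals9 of 0.716 (0.407 to 1.26). The intervals with the group as the only term allow changes of up to 2.35-fold for Icam1 and 1.43-fold for Cd274.

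Whether the response to IFN-γ differed with EZH2i was tested as the interaction of the treatments. No member and none of the 18995 genes was called (0% of genes, edgeR), at an unadjusted p under 0.05 there were 0 members and 127 genes, and DESeq2 also called 0 genes (135 unadjusted). Fewer genes than a share of 0.05 fell under that unadjusted p, so the test with the group as the only term was strict here. The reason was not tested. These counts do not show that the responses were equal. The log2 response of Cd274 was larger by 0.37 with EZH2i (95% interval -0.30 to 1.05) and that of Cd47 by 0.18 (-0.35 to 0.72). For Icam1 the difference was -0.26 (-1.34 to 0.83), for Icosl -0.20 (-0.90 to 0.49), for Cd80 -0.48 (-1.34 to 0.38) and for Vcam1 0.04 (-1.06 to 1.14). Lgals9 was at the floor in EZH2i, which leaves the direction of its difference undetermined.

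**Figure D3:**
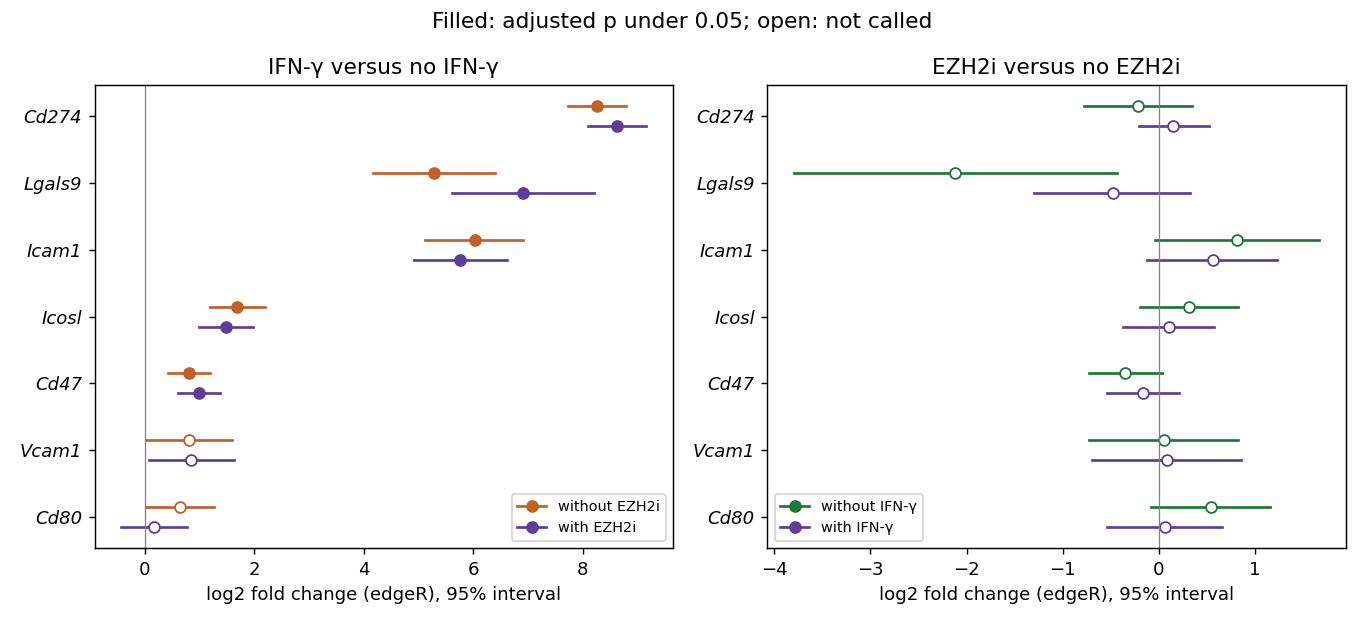
Log2 fold changes with 95% intervals from edgeR (x axis) for the 7 members past the filter (y axis), for IFN-γ (left) and for EZH2i (right), with filled points for adjusted p under 0.05. The IFN-γ changes of Cd274, Lgals9, Icam1, Icosl and Cd47 are called with and without EZH2i, and none of the EZH2i changes is. The values of Lgals9 against EZH2i rest on 0 to 2 counts per library.

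Levels of different genes were compared per transcript length, as the summed TPM of each gene. In Ctr, Cd47 (7.62 TPM as a mean of 3 libraries) and Vcam1 (5.27 TPM) led, with overlapping libraries, and stood above Icosl (0.314 TPM), Icam1 (0.227 TPM), Cd80 (0.165 TPM), Cd40 (0.146 TPM) and Cd274 (0.114 TPM), each of which overlapped with the next. Lgals9 (0.0602 TPM) came next, and Pdcd1lg2 (0.0120 TPM) and Cd86 (0 TPM) were the lowest. With EZH2i, the order began alike with Cd47 (8.69 TPM) and Vcam1 (6.40 TPM), which overlapped. Under IFN-γ the order changed. Cd274 (40.6 TPM) was above all others in every library, followed by Icam1 (19.2 TPM), Cd47 (15.2 TPM) and Vcam1 (10.1 TPM), where neighbours overlapped, and then by Lgals9 (2.58 TPM), Icosl (1.05 TPM) and Cd80 (0.297 TPM), each apart from the next. With both treatments the order was the same, from Cd274 (41.8 TPM) through Icam1 (26.0 TPM), Cd47 (14.2 TPM) and Vcam1 (10.0 TPM) to Cd86 (0.00439 TPM). In the deposited TPM, genes of an effective length under 200 bases took 73.6% of the sum in Ctr replicate 1 and 57.1% to 65.6% in the other libraries, and the TPM of all longer genes is lower in proportion there.

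**Figure D4:**
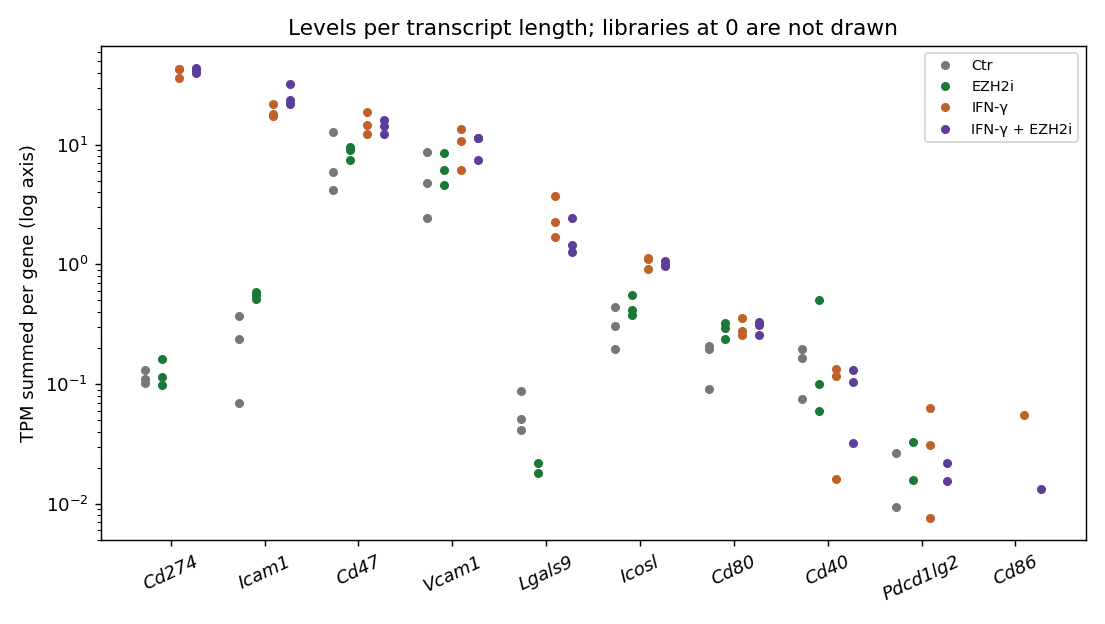
TPM summed per gene (log y axis) for the 10 members (x axis, ordered by the mean with IFN-γ), with 1 point per library and a color per group, where libraries at 0 are not drawn. Cd47 and Vcam1 lead without IFN-γ, and Cd274 lies above all others with it, at 36.2 to 43.4 TPM in the 6 libraries with IFN-γ.

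Related ligand families were read in the same fit, where 6.65% of all genes were called higher with IFN-γ. Of 6 other B7 and butyrophilin genes, 3 were tested and 1 was higher with IFN-γ, Vsir, which encodes the checkpoint ligand VISTA (21.0 ± 9.25 against 3.54 ± 1.76 CPM, adjusted p = 0.0177). Of 9 TNF superfamily ligands, 3 were tested and Tnfsf10, the death ligand TRAIL, was higher (7.94 ± 1.85 against 0.0236 ± 0.0409 CPM, adjusted p = 3.69e-06). Like Lgals9, Tnfsf10 was near the floor without IFN-γ (0.0101 CPM with EZH2i alone). It passed the filter through its IFN-γ libraries, so its calls are a description only. Of 11 other adhesion ligands, 6 were tested and Jam3 was higher (202 ± 17.7 against 74.6 ± 3.89 CPM, adjusted p = 1.12e-05), and of 6 other galectins and inhibitory ligands 4 were tested and Lgals8 was higher (72.6 ± 9.16 against 27.2 ± 2.47 CPM, adjusted p = 2.26e-05). Vsir, Tnfsf10, Jam3 and Lgals8 were also higher in IFN-γ with EZH2i versus EZH2i. Of 8 nectins and CD2-axis ligands, 7 were tested, and Pvr was higher with IFN-γ (34.6 ± 4.57 against 21.0 ± 2.83 CPM, adjusted p = 0.0114) and Nectin4 lower (0.567 ± 0.189 against 1.54 ± 0.429 CPM, adjusted p = 0.0106). With EZH2i only Nectin4 was called in that list.

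Receptors for the members are mostly genes of leukocytes, and 6 of 15 counter-receptor genes passed the filter. Itga4, the α subunit of VLA-4, was lower with IFN-γ (3.86 ± 0.372 against 14.8 ± 1.75 CPM, SD, n = 3, adjusted p = 5.64e-05), and so was Sirpa, the receptor of CD47 (31.2 ± 5.35 against 57.7 ± 3.88 CPM, adjusted p = 0.00321). Thbs1, thrombospondin-1, which also binds CD47, was higher (34.7 ± 14.7 against 5.01 ± 1.69 CPM, adjusted p = 2.21e-04). The 3 genes were called in the same direction with EZH2i. Of 8 CD40 adaptors and PD-L1 stabilizers, 7 were tested and Map3k14, the kinase NIK downstream of CD40, was higher (20.8 ± 1.62 against 8.31 ± 1.25 CPM, adjusted p = 5.92e-04). In the relay from the IFN-γ receptor, 4 of 6 genes were higher, among them Irf1 (951 ± 116 against 12 ± 0.410 CPM), Jak1 (159 ± 5.17 against 74.4 ± 7.30 CPM) and Jak2 (162 ± 33.2 against 66.7 ± 4.46 CPM). None of the genes in these lists was called with EZH2i, in the absence or presence of IFN-γ.

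Within 200 kb of the members' starts, 48 other coding genes were tested, of which 7 were higher and 0 lower in IFN-γ versus Ctr, beside 6.65% of all genes called higher. Next to Cd274, Plgrkt starts 65 bases away on the opposite strand and was higher, at 33.6 against 15.1 CPM (adjusted p = 0.00689), and Jak2 at 116 kb and Ric1 at 155 kb were higher as well. Others were A230050P20Rik near Icam1, Pwp2 near Icosl and Pla1a near Cd80, of which Pla1a was near the floor in Ctr (0.0113 CPM). With EZH2i, 6 were higher and 1 lower, where Casr near Cd86 and Lyrm9 near Lgals9, the lower one, took the place of Ric1 and Pwp2.

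The genes whose profile over the 12 libraries was most like that of a member were sought among the 14681 genes tested with a mean of at least 1 CPM, by the root mean square difference of log2(CPM + 0.5) profiles centred on each gene's mean. For Cd274 these were 9930111J21Rik2 (0.183), Irf8 (0.244) and Serpina3f (0.294). For Icam1 they were Tap2 (0.415), Tap1 (0.437) and Mlkl (0.448), and for Vcam1 A2m (0.161), Gabrb2 (0.194) and Gm43445 (0.199). Irf8 went from 1.80 CPM in Ctr to 454 CPM with IFN-γ, and A2m from 114 to 195 CPM.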

How the data were processed

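Bulk RNA-seq (stranded total RNA) was performed on 12 libraries of cultured mouse OPCs. The authors quantified transcripts with Salmon 0.8.2 on GRCm38 and deposited, for each transcript, an estimated count of read pairs and a TPM value, which is scaled to transcript length and library. The authors' 2 deposited tables of DESeq2 comparisons (log2 fold changes, p-values, mean counts) were not used. Estimated counts were summed per gene (GENCODE M21) and rounded. The test was edgeR 4.0.16 in R 4.3.3 with TMM factors, quasi-likelihood, the group as the only term and 1 fit of all 12 libraries, after the default filter on low counts. Adjusted p is Benjamini-Hochberg over 18995 genes, called under 0.05. The study used DESeq2, which is an alternative here (1.42.0). Other alternatives were RLE factors, no filter, a minimum of 10 counts in all samples, a block for the replicate number, TPM scaled by length, only the 6 samples compared, and each library left out. The code was tested on simulated data.

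The members and gene lists were chosen with earlier results of these data known. All 10 members are named, with at most 4 called genes of each other list, called coding genes within 200 kb and the 3 genes most alike. Ric1, Pwp2, Pla1a, Casr and Lyrm9 are named under the same rule. Some genes that the rules pick are not reported here. Same-numbered libraries deviated together, over all genes tested, at 0.604, 0.493 and 0.642 between IFN-γ with EZH2i and IFN-γ, and at 0.530, 0.496 and 0.621 between IFN-γ with EZH2i and EZH2i, but at 0.0854 or less in number 2 of every comparison with Ctr. The numbers were thus taken to pair libraries only in comparisons without Ctr, a choice also made with earlier results known. Over genes of at least 1 CPM the value for Ctr and IFN-γ in number 2 was 0.118.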

Additional observations from a re-analysis of the deposited data

How the results depend on the processing

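With IFN-γ, the 5 calls without EZH2i and the 5 with it were the counts under DESeq2, RLE factors, no filter on low counts and only the 6 samples compared. With length-scaled TPM the counts were 4 and 4, with Cd47 not called. Requiring at least 10 counts in every sample left 2 and 2, since Cd274, Icam1 and Lgals9 are then not tested. With each library left out, 4 to 5 members were called without EZH2i and 5 with it. No member was called with EZH2i or in the interaction under any alternative tried. With the replicate block, 6 members were called with IFN-γ in both comparisons, Vcam1 being added (adjusted p = 3.07e-05 in IFN-γ versus Ctr, where numbers do not pair libraries by the check used, and 1.41e-05 with EZH2i), and no other member's call changed. The block called 4032 genes in IFN-γ versus Ctr against 1663 without it, 3661 against 1533 in the presence of EZH2i, 771 against 77 in EZH2i versus Ctr, 748 against 67 for EZH2i under IFN-γ, and 0 in the interaction. For EZH2i versus Ctr the number of genes called was also 331 with DESeq2, 121 with no filter, 29 with at least 10 counts, 49 with length-scaled TPM, 33 with only the 6 samples and 11 to 83 with a library left out. For EZH2i under IFN-γ it was 281, 11 with at least 10 counts, 31 with length-scaled TPM, 7 with only the 6 samples and 10 to 65 with a library left out. The cause of these differences was not tested.

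Direction turned only in fitted changes that were not called. Cd80 turned in IFN-γ with EZH2i versus EZH2i (-0.0067 to 0.29 on the log2 scale with each library left out) and in the EZH2i change under IFN-γ (-0.09 to 0.14), both without the third replicate of both treatments. Vcam1 turned in EZH2i versus Ctr without Ctr replicate 1 or EZH2i replicate 3 (range -0.26 to 0.39), and under IFN-γ without IFN-γ replicate 1 or the third of both (-0.15 to 0.41). Its interaction turned without Ctr replicate 3, EZH2i replicate 1, IFN-γ replicate 1 or the third of both (-0.31 to 0.37). Cd47 turned with length-scaled TPM in the EZH2i change under IFN-γ (0.04), and in the interaction without Ctr replicate 3 (-0.01 to 0.29), and the Icam1 interaction without Ctr replicate 2 (-1.0 to 0.08). Genes at 0 to 8 counts per library (Cd40, Cd86, Pdcd1lg2) are limited by depth.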
